A study of Mus musculus with 48 samples.

Results

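This account describes the messenger RNA of 10 mouse genes that encode the isocitrate dehydrogenases (Idh1, Idh2, Idh3a, Idh3b, Idh3g), the malate dehydrogenases (Mdh1, Mdh2) and the malic enzymes (Me1, Me2, Me3), out of 27179 genes counted. The genes were chosen by name, and the group was selected on measured values, since Idh2, Idh3a and Me3 had distinct levels over the 8 groups of stage and muscle. For these 3 genes the levels and fold changes are therefore a description with no test, and tests are given for the other 7. The muscle RNA came from male mice of the inbred strain FVB/NJ, with no transgene or treatment named in the labels. The 4 hindlimb muscles were 2 of the shank, soleus and gastrocnemius, and 2 of the thigh, vastus intermedius and vastus lateralis, and per the labels soleus and vastus intermedius hold more slow fibres than their neighbours. Each muscle was taken from 6 animals at the late embryonic stage E18.5 and from 6 adults, whose age the sources give in conflicting ways. Each animal of a stage gave 1 library of every muscle and is named here by its collection, A to F. Letters do not link the stages.

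Libraries held 14.94 to 32.38 M counts (median 22.9 M), of which the 20 most abundant genes held 8.1% to 16.83% at E18.5 and 17.3% to 39.22% in adults. One library, adult vastus intermedius of collection B, was left out by the rule that defined the gene group, which left 47 libraries and 5 of adult vastus intermedius. That library held 8920.9 CPM (read counts relative to library size) of the embryonic myosin gene Myh3, against 6.22 to 22.9 CPM in the other 5 adult libraries and 8452.1 to 13510.0 CPM in the E18.5 libraries of that muscle. Its Idh2 level was 408 CPM, its Mdh1 level 526 CPM, its Me1 level 8.28 CPM and its Me3 level 3.56 CPM, each outside the range of the other 5 adult libraries and inside that of the E18.5 libraries of the muscle. Fibre markers (Acta1, Ckm, Des, Ttn and Myog) were present in every group, with summed levels of 8352.5 to 32340.7 CPM at E18.5 and 73468.6 to 213502.5 CPM in adults. In bulk muscle, fewer cells of a type and less RNA per cell cannot be told apart.

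Isocitrate dehydrogenases turn isocitrate into 2-oxoglutarate. The NAD-dependent enzyme of the tricarboxylic acid cycle is built from a catalytic subunit, encoded by Idh3a, and subunits encoded by Idh3b and Idh3g, and it runs in the oxidative direction in mitochondria. Idh2, in mitochondria, and Idh1, in the cytosol and peroxisomes, encode separate enzymes that use NADP and yield NADPH, the reducing power for antioxidant defence and for lipid synthesis. Mdh2 encodes the mitochondrial malate dehydrogenase of the cycle, and Mdh1 the cytosolic enzyme of the malate-aspartate shuttle, which carries reducing equivalents from glycolysis into mitochondria. Malic enzymes convert malate to pyruvate. Me1 acts in the cytosol and Me3 in mitochondria, both with NADP, whereas Me2 is a mitochondrial enzyme that uses mainly NAD.

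Promoter windows from RefSeq (GRCm38.p6, 250 bases before to 50 after a transcript start) were found for 8 of the 10 genes. The 4 printed here let a pair of genes that were high in both slow-biased adult muscles, Idh2 and Mdh1, be read beside a pair that was low in adult soleus, Me1 and Me3. They were chosen after their values were seen, and other genes with an entry (Idh3b, Idh3g and Mdh2) also differed between adult muscles. Capitals mark a match to the core of the antioxidant response element, TGACNNNGC on either strand, which 12.39% of 32851 such windows held. The Idh2 window, at chr7:80115301-80115600 on the minus strand, and the Me3 window, at chr7:89632568-89632867 on the plus strand, belong to a start inside the gene's RefSeq span. The Mdh1 window was at chr11:21571885-21572184 and the Me1 window at chr9:86695865-86696164, both on the minus strand.
Idh2: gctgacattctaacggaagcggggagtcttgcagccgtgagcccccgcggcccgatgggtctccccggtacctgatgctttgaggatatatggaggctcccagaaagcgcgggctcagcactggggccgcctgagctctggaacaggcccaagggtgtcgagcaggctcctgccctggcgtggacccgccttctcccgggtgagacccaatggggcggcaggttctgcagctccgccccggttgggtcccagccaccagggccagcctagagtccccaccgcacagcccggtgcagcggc
Mdh1: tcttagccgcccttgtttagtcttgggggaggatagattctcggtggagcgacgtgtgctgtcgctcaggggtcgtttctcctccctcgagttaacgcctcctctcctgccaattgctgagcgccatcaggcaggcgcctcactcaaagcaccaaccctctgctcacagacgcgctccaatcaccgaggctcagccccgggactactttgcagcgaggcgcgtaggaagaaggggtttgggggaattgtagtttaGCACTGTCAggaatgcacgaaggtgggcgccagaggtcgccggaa
Me1: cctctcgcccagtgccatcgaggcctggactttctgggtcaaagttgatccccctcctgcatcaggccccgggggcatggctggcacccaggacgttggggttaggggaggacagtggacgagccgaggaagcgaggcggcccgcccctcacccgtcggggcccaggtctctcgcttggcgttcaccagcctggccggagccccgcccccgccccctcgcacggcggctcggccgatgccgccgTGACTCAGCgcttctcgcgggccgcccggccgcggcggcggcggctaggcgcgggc
Me3: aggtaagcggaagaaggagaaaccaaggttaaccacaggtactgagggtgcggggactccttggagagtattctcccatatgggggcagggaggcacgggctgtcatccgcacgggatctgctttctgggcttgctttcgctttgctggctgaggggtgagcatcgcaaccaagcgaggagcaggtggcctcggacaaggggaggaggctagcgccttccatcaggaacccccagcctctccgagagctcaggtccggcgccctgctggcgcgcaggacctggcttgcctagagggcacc
The Me1 window is the first of its 2 entries, and the other held no match. The match in Me1 began at base 245 of its window and the match in Mdh1 at base 256, there on the opposite strand. Idh3g held the same core at bases 33 and 172, and Idh1, Idh2, Idh3b, Mdh2 and Me3 held none. The ETS motif CCGGAAG, bound by GABPA, was found at base 246 of the Idh3b window and base 147 of the Idh3g window, and 8.86% of all windows held it. No window of these 8 genes held the oestrogen-related receptor motif TNAAGGTCA (1.28% of all windows), the NRF1 motif GCGCANGCG (6.25%) or the MEF2 motif, CTA and TAG with 4 bases of any kind between them (3.69%). The GC content was 74.7% in the Me1 window, 68.3% in Idh2, 62.7% in Me3 and 59.3% in Mdh1, against a median of 52.7% over all windows. A match describes letters and not a bound site.

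Levels below are CPM scaled by TMM, which sets libraries to 1 scale by the trimmed mean of their log ratios, and are given as mean ± SD over animals. Idh2 (Entrez 269951, chr7:80094845-80118608) stood at nearly equal levels in the 4 muscles at E18.5 and spread widely in adults. At E18.5 it was 341 ± 49.1 CPM in soleus, 324 ± 32.9 in gastrocnemius, 402 ± 49.8 in vastus lateralis and 422 ± 75.7 in vastus intermedius (n = 6 each), and the ranges of all 4 overlapped. In adult soleus the lowest library had 1654.0 CPM, the median was 1987.5 and the highest 2289.6 (1974.6 ± 240, n = 6). In adult vastus intermedius the 5 libraries had 1428.4, 1775.1, 1594.5, 1010.7 and 1412.1 CPM (1444.2 ± 283). Adult vastus lateralis had 84.3 to 113 CPM with a median of 96.0 (98.3 ± 9.91, n = 6). The adult order was thus soleus, vastus intermedius, gastrocnemius and vastus lateralis, of which only soleus and vastus intermedius overlapped, and the mean of soleus was 20.1 times that of vastus lateralis.

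Adult gastrocnemius had the widest spread of Idh2 between animals relative to its mean. Its libraries A to F had 115, 573, 520, 123, 724 and 363 CPM (403 ± 249, n = 6), so that collections A and D lay near vastus lateralis and E highest. The slow myosin gene Myh7 had 28.4, 721, 1106.9, 15.2, 1467.1 and 824 CPM in the same 6 libraries, lowest in the same 2 collections and highest in E. The fast myosin gene Myh2 had 748, 7112.4, 4567.8, 1029.7, 5965.1 and 3813.1 CPM there, also lowest in A and D but highest in B. Adult vastus intermedius had more Myh2 (14948.2 to 23229.9 CPM) than adult soleus (8485.0 to 14155.0 CPM). The part of the slow-fibre and Myh2-fibre shares in the Idh2 level was not tested. The summed level of the slow-fibre markers Myh7, Tnnt1 and Myl2 was 23843.8 to 41755.3 CPM in adult soleus, 4729.8 to 16351.5 in vastus intermedius, 59.4 to 2512.5 in gastrocnemius and 0.247 to 16.8 in vastus lateralis. For the fast-fibre markers Myh2, Myh1 and Myh4 it was 13024.7 to 17443.7 CPM in soleus and 33461.6 to 82663.9 in vastus intermedius. In gastrocnemius it was 98557.2 to 147923.1 CPM and in vastus lateralis 121551.1 to 177487.3. Soleus minus gastrocnemius was 2.33 ± 0.32 (log2 fold change ± SE) for Idh2, and vastus intermedius minus vastus lateralis 3.91 ± 0.34.

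Idh1 (Entrez 15926, chr1:65158616-65186479), the cytosolic counterpart, was a low transcript with a small spread. Its adult level was 37.2 ± 6.0 CPM in soleus, 28.2 ± 7.38 in gastrocnemius, 25.3 ± 7.8 in vastus lateralis and 45.8 ± 11.4 in vastus intermedius, and the ranges of all 4 muscles overlapped. In the thigh Idh1 was higher in vastus intermedius, by 0.89 ± 0.2 on the log2 scale (adjusted p = 0.000725, edgeR quasi-likelihood test). In the shank soleus minus gastrocnemius was 0.43 ± 0.19 and did not pass (adjusted p = 0.064). With the animal as a replicate block the same shank difference was 0.45 ± 0.1 and passed (adjusted p = 0.000981), as it did without collection A (adjusted p = 0.0492) or B (adjusted p = 0.0268). Per base of transcript, Idh2 made up 98.7 ± 0.211% of Idh1 plus Idh2 in adult soleus and 84.8 ± 3.93% in adult vastus lateralis.

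**Figure D1:**
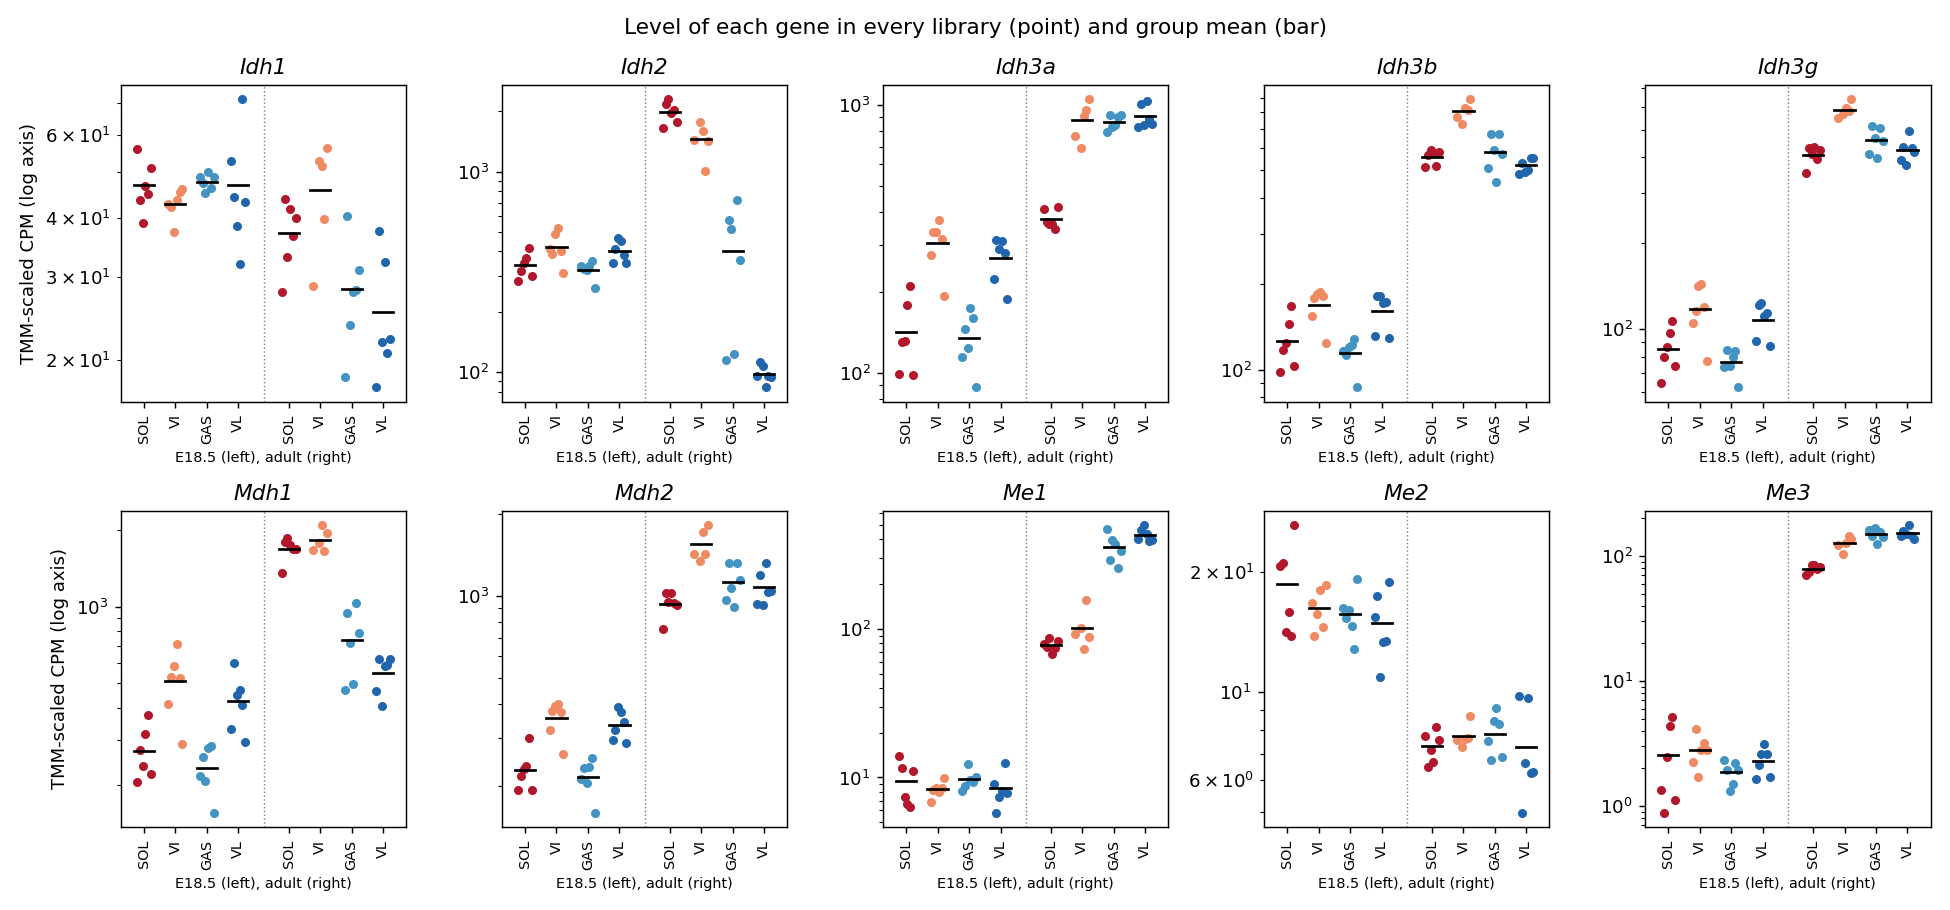
Level of each of the 10 genes in every library (points, TMM-scaled CPM, log axis) in the 8 groups of stage and muscle. SOL is soleus, VI vastus intermedius, GAS gastrocnemius and VL vastus lateralis, and bars mark group means. Idh2 spans 84.3 to 2289.6 CPM over the adult libraries, and Me3 lies below 6 CPM in all E18.5 libraries.

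The catalytic subunit gene Idh3a (Entrez 67834, chr9:54586511-54604662) set adult soleus apart from the 3 other muscles. In adult soleus it ranged from 344 to 417 CPM with a median of 364 (377 ± 30, n = 6). The 5 adult vastus intermedius libraries had 769, 692, 909, 958 and 1050 CPM (875 ± 144). Adult gastrocnemius ranged from 795 to 921 CPM (median 871, 867 ± 52.2) and vastus lateralis from 827 to 1033.9 CPM (median 870, 909 ± 91.1). No soleus library reached the lowest library of any other adult muscle, and the 3 other muscles overlapped one another. Soleus minus gastrocnemius was -1.17 ± 0.09 (log2), and vastus intermedius minus vastus lateralis -0.03 ± 0.1.

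Idh3b (Entrez 170718, chr2:130279309-130284451) and Idh3g (Entrez 15929, chrX:73778963-73786897) had the highest adult level in vastus intermedius. Idh3b had 730 to 888 CPM there (805 ± 59.8, n = 5), against 557 ± 32.6 in soleus, 578 ± 86.2 in gastrocnemius and 520 ± 30.2 in vastus lateralis. Idh3g had 549 to 640 CPM in vastus intermedius (588 ± 34), against 408 ± 31.4 in soleus, 459 ± 48.7 in gastrocnemius and 424 ± 41.2 in vastus lateralis. The vastus intermedius range of each gene lay above the other 3. In the thigh both were higher in the slow-biased muscle, Idh3b by 0.66 ± 0.09 (adjusted p = 1.88e-06) and Idh3g by 0.5 ± 0.09 (adjusted p = 3.99e-05). In the shank soleus minus gastrocnemius was -0.02 for Idh3b (adjusted p = 0.844) and -0.14 for Idh3g (adjusted p = 0.168), and neither passed.

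The 3 subunit transcripts did not keep 1 proportion over the adult muscles. The shares in this paragraph are a description, since Idh3a and Idh2 were selected on their levels over these groups. Per base of transcript, Idh3a was 18.9 ± 1.78% of the 3 subunits in adult soleus, 33.3 ± 2.18% in gastrocnemius, 36.3 ± 1.61% in vastus lateralis and 27.1 ± 2.17% in vastus intermedius. The soleus libraries spanned 17.5% to 22.1% and the vastus intermedius libraries 24.0% to 29.1%, so that these ranges did not overlap. Idh2, set against Idh2 plus the 3 subunits in the same way, took 58.1 ± 2.89% in adult soleus, 16.6 ± 8.25% in gastrocnemius, 5.29 ± 0.668% in vastus lateralis and 38.7 ± 6.12% in vastus intermedius. At E18.5 that share was 49.6% in soleus, 50.4% in gastrocnemius, 44.3% in vastus lateralis and 43.3% in vastus intermedius.

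Mdh1 (Entrez 17449, chr11:21556692-21571934), the cytosolic shuttle enzyme, was higher in both slow-biased adult muscles than in their neighbours. In adult soleus it ranged from 1350.6 to 1861.6 CPM with a median of 1718.0 (1687.8 ± 179), and the 5 vastus intermedius libraries had 1667.4, 1782.2, 2092.7, 1657.7 and 1953.4 CPM (1830.7 ± 189). Gastrocnemius A to F had 470, 944, 722, 496, 1035.5 and 786 CPM (742 ± 230), with the lowest values in collections A and D, as for Idh2. Vastus lateralis had 408 to 623 CPM (median 586, 549 ± 89.3). Soleus was 1.22 ± 0.16 above gastrocnemius on the log2 scale (adjusted p = 1.08e-06), and vastus intermedius 1.77 ± 0.17 above vastus lateralis (adjusted p = 1.21e-08). The ranges of slow-biased and fast-biased muscle did not overlap in either pair.

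Mdh2 (Entrez 17448, chr5:135778649-135790386), the mitochondrial enzyme of the cycle, was highest in adult vastus intermedius, at 1546.8 ± 208 CPM (1347.8 to 1821.9). It stood at 936 ± 100 CPM in soleus, 1120.4 ± 173 in gastrocnemius and 1074.6 ± 154 in vastus lateralis, and those 3 ranges overlapped. Vastus intermedius was 0.55 ± 0.12 above vastus lateralis (adjusted p = 0.000519). Soleus minus gastrocnemius was -0.23 and did not pass (adjusted p = 0.103). Without collection D it was -0.31 ± 0.12 (adjusted p = 0.031) for Mdh2. Per base, Mdh1 made up 54.1 ± 1.21% of Mdh1 plus Mdh2 in adult soleus, 29.7 ± 3.7% in gastrocnemius, 25 ± 2.34% in vastus lateralis and 43.7 ± 1.88% in vastus intermedius, and the ranges of gastrocnemius and vastus lateralis overlapped.

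**Figure D2:**
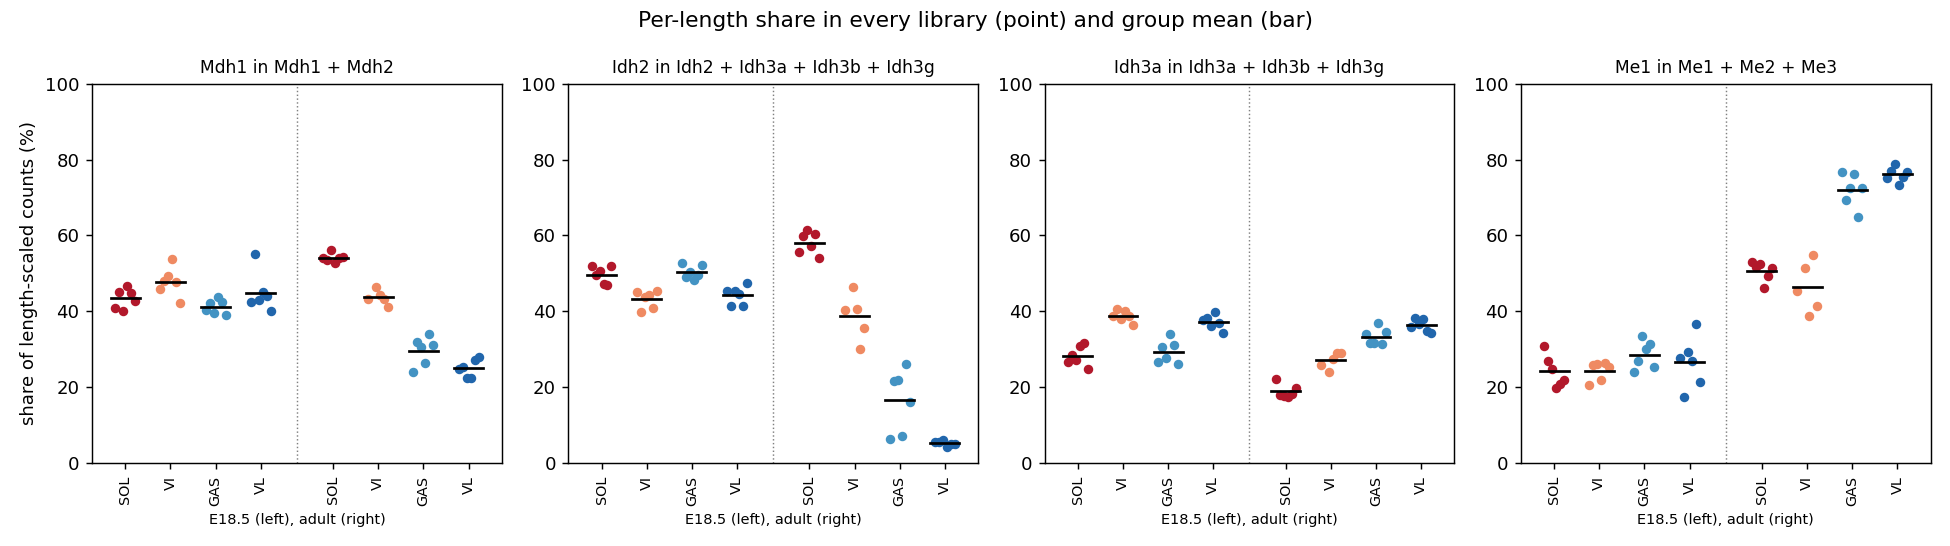
Shares of the transcripts of an enzyme group per base of transcript (percent), with 1 point per library and bars for group means, for Idh3a among the Idh3 subunits, Idh2 against those subunits, Mdh1 against Mdh2, and Me1 among the malic enzymes. The Idh2 group means lie from 43.3% to 50.4% at E18.5 and from 5.29% in vastus lateralis to 58.1% in soleus in adults, and the E18.5 share of Idh3a is 28.3% in soleus and 38.8% in vastus intermedius.

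Me1 (Entrez 17436, chr9:86581363-86695914), the cytosolic malic enzyme, ran opposite to Mdh1 in adults. Soleus had 68.3 to 87.4 CPM (median 77.0, 77.8 ± 6.67) and the 5 vastus intermedius libraries 91.9, 101, 73.3, 157 and 87.9 CPM (102 ± 32.4). Gastrocnemius had 259 to 470 CPM (median 354, 354 ± 76.3) and vastus lateralis 388 to 500 CPM (median 421, 432 ± 44.1). The slow-biased libraries all lay below the fast-biased ones, and within each kind the muscles overlapped. Soleus was lower than gastrocnemius by a log2 change of -2.15 ± 0.15 (adjusted p = 3.82e-11) and vastus intermedius lower than vastus lateralis by -2.05 ± 0.16 (adjusted p = 9.48e-10).

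Me1 is also a gene of fat cells, and the 8 adipocyte markers listed were Adipoq, Plin1, Cidec, Lep, Retn, Cfd, Fabp4 and Ucp1. Their summed level was 366 to 498 CPM in adult soleus, 275 to 1112.3 in vastus intermedius, 135 to 297 in gastrocnemius and 174 to 747 in vastus lateralis. Of the 8 markers, 7 had a count in adult soleus and gastrocnemius, where Ucp1 was at 0, and all 8 had one in the adult vastus muscles. In vastus intermedius, Ucp1 had 218 CPM in collection C and at most 0.107 CPM in the other libraries. That library also held 386 CPM of the summed tendon markers (Tnmd, Scx and Fmod), against 5.56 to 12.4 CPM in the others. Me1 in vastus intermedius was 101 CPM in collection C and highest in E, at 157 CPM. The fast myosin gene Myh4 was lowest in C (1068.7 CPM) and highest in E (52387.0 CPM) of these libraries. The part of the adipocyte, tendon and fast-fibre markers in the Me1 level was not tested.

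Me3 (Entrez 109264, chr7:89632284-89854359), the mitochondrial NADP enzyme, was lowest in adult soleus. Soleus ranged from 71.0 to 85.3 CPM (median 80.7, 79.3 ± 5.72), and the 5 vastus intermedius libraries had 122, 104, 127, 144 and 136 CPM (127 ± 15). Gastrocnemius had 126 to 169 CPM (median 151, 150 ± 15.2) and vastus lateralis 136 to 177 CPM (median 149, 152 ± 14.6). The soleus range lay below the other 3, which overlapped. Soleus minus gastrocnemius was -0.89 ± 0.08 on the log2 scale, and vastus intermedius minus vastus lateralis -0.24 ± 0.09. The rank of soleus below the other muscles was thus shared by Idh3a and Me3, whose log2 levels over the 23 adult libraries correlated at a Pearson r of 0.929, a description over libraries that share animals and muscles.

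Me2 (Entrez 107029), the NAD-linked mitochondrial enzyme, was near 1 level in all adult muscles. It had 7.29 ± 0.641 CPM in soleus, 7.84 ± 0.938 in gastrocnemius, 7.26 ± 1.97 in vastus lateralis and 7.77 ± 0.544 in vastus intermedius, with overlapping ranges. Soleus minus gastrocnemius was -0.07 (adjusted p = 0.698) and vastus intermedius minus vastus lateralis 0.14 (adjusted p = 0.464). Per base, Me1 made up 76.1 ± 1.95% of malic enzyme transcripts in adult vastus lateralis and 50.7 ± 2.57% in soleus. Me3 made up 22 ± 1.61% and 42.4 ± 2.66% in the same muscles, and Me2 at most 6.94 ± 0.644%, in soleus.

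In the adult shank pair, 2 of the 7 tested genes passed, Mdh1 higher and Me1 lower in soleus, where 53.5% of the 14304 genes tested passed. With the replicate block 3 of 7 passed there, adding Idh1. In the adult thigh pair, 6 of 7 passed, 5 higher in vastus intermedius (Idh1, Idh3b, Idh3g, Mdh1, Mdh2) and Me1 lower, where 52.2% of all genes passed. The median log2 change over the 7 genes was -0.07 for the shank pair and 0.55 for the thigh pair, against 0.08 and 0.07 over all genes. Markers of other cell types moved with these pairs. The 5 endothelial markers (Pecam1, Cdh5, Kdr, Tek and Emcn), all with counts in every adult muscle, summed to 504 to 599 CPM in soleus against 329 to 469 in gastrocnemius, and to 537 to 725 in vastus intermedius against 244 to 396 in vastus lateralis, without overlap in either pair. The 5 leukocyte markers summed to 93.0 to 149 CPM in soleus against 37.3 to 95.9 in gastrocnemius, and to 79.9 to 114 in vastus intermedius against 27.5 to 81.7 in vastus lateralis. The 4 smooth muscle and pericyte markers summed to 312 to 423 CPM against 173 to 289 in the shank, and to 304 to 574 against 112 to 341 in the thigh. The summed fibre markers went the other way, at 73468.6 to 94170.7 CPM in soleus against 116466.0 to 151001.3 in gastrocnemius. In the thigh they were at 83275.4 to 101481.7 CPM in vastus intermedius against 130995.1 to 213502.5 in vastus lateralis. The part of all these markers in the differences was not tested. The difference between the pairs, shank minus thigh, was itself tested. It passed for Idh3b (-0.68 ± 0.13, adjusted p = 0.00117), Idh3g (-0.64 ± 0.12, adjusted p = 0.00147) and Mdh2 (-0.78 ± 0.17, adjusted p = 0.00461), where 8.10% of all genes passed. For Mdh1 it was -0.55 (adjusted p = 0.162) and for Me1 -0.1 (adjusted p = 0.849), so that no difference between the pairs was shown for the genes with the largest tested changes. For Idh1 it was -0.46 (adjusted p = 0.377), or -0.55 ± 0.15 (adjusted p = 0.0234) with the replicate block. Idh2 had -1.59 ± 0.44, Idh3a -1.15 ± 0.13 and Me3 -0.65 ± 0.12. Without collection F, the Mdh2 value was -0.7 ± 0.2 and did not pass (adjusted p = 0.0517). With the left-out vastus intermedius library kept, 3 of the 7 genes passed in the thigh (Idh1, Mdh1 and Me1) and 0 in the difference between the pairs.

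**Figure D3:**
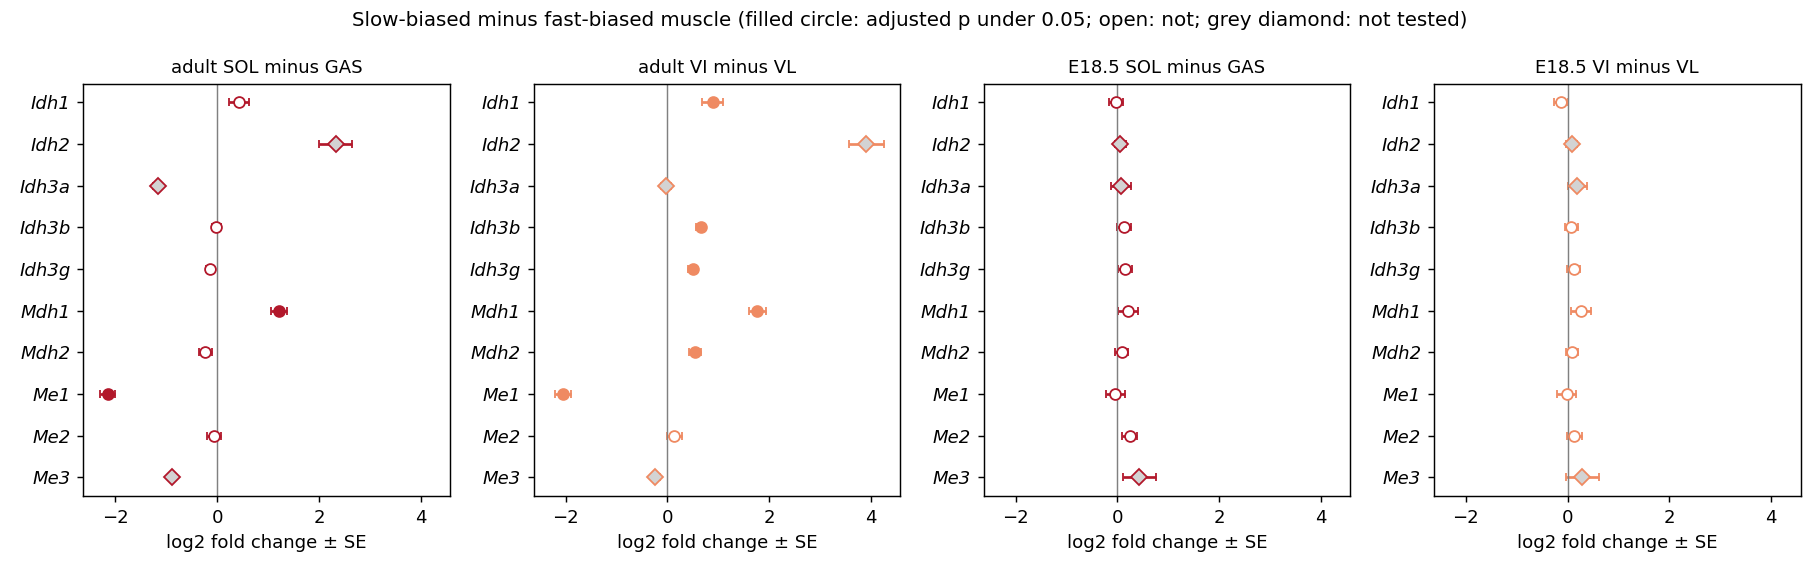
Log2 fold change (± SE) of each gene between the slow-biased and the fast-biased muscle of a pair, in adults and at E18.5. Filled circles have an adjusted p under 0.05, open circles do not, and grey diamonds mark the 3 genes that were not tested. Adult values run from -2.15 (Me1, shank) to 3.91 (Idh2, thigh), and E18.5 values from -0.13 to 0.43.

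The slow-biased muscles also differed from each other. Soleus was lower than vastus intermedius in Idh3b (-0.54, adjusted p = 0.000154), Idh3g (-0.53, adjusted p = 0.000115) and Mdh2 (-0.73, adjusted p = 0.000141), which is 3 of 7 genes where 17.2% of all genes passed. These values use the same soleus and vastus intermedius libraries as the pairs above. Idh1 was at -0.31 (adjusted p = 0.326), or -0.39 ± 0.11 (adjusted p = 0.0143) with the replicate block. With the left-out library kept, 0 of 7 passed between soleus and vastus intermedius. Between the fast-biased muscles, gastrocnemius and vastus lateralis, edgeR called 0 of 7, DESeq2 called 0, and 2 genes had an unadjusted p under 0.05, where 5.64% of all genes passed.

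TMM and total counts placed adult muscles on different scales. Scaling by total counts moved all log2 differences by 0.41 in the adult shank pair and 0.32 in the thigh pair, and none of the called differences changed sign. On that scale soleus minus gastrocnemius was 0.39 for Idh3b, 0.27 for Idh3g, 0.18 for Mdh2 and 0.34 for Me2, each of which was under 0 with TMM and not called. Vastus intermedius minus vastus lateralis became 0.3 for Idh3a and 0.09 for Me3, from -0.03 and -0.24.

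At E18.5 none of the 7 tested genes separated a slow-biased muscle from its neighbour. Adjusted p-values in soleus minus gastrocnemius ran from 0.726 (Me2) to 0.993, with changes of -0.04 to 0.24, and those in vastus intermedius minus vastus lateralis from 0.936 (Mdh1) to 0.997, with changes of -0.13 to 0.26. edgeR and DESeq2 called 0 of 7 in both pairs, and 0 had an unadjusted p under 0.05. Few other genes passed, 0.286% of the 15751 tested in the shank and 0.0317% in the thigh. Slow myosin Myh7 had 1076.8, 10.5, 1644.9, 2471.2, 575 and 41.9 CPM in E18.5 vastus intermedius A to F. In vastus lateralis A to F it had 37.4, 1157.4, 72.4, 177, 90 and 139 CPM, so that B and F ran against the muscle labels. Without collection B, 100 genes passed in the thigh, against 5 with all animals, and none of the 7 gained a call there. The cause was not tested. The described genes stood at 0.06 ± 0.11 (Idh2), 0.07 ± 0.19 (Idh3a) and 0.43 ± 0.33 (Me3) in the shank.

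What did separate E18.5 muscles was thigh against shank. These comparisons were added after the values were seen. Idh3a had 142 ± 45.6 CPM in soleus and 135 ± 31.8 in gastrocnemius, against 305 ± 63.4 in vastus intermedius and 268 ± 50.6 in vastus lateralis. Mdh1 ranged from 155 to 375 CPM over the 12 shank libraries and from 290 to 715 CPM over the 12 thigh libraries, which overlap in part. Soleus was lower than vastus intermedius in Mdh1 (-0.9 ± 0.2, adjusted p = 0.00463), Mdh2 (-0.62 ± 0.12, adjusted p = 0.00206), Idh3g (-0.45 ± 0.13, adjusted p = 0.0273) and Idh3b (-0.41 ± 0.13, adjusted p = 0.0387), where 11.2% of all genes passed. Gastrocnemius was lower than vastus lateralis in the same 4 genes, with -0.85 ± 0.2 for Mdh1 (adjusted p = 0.00766), -0.61 ± 0.12 for Mdh2 (adjusted p = 0.00306), -0.47 ± 0.13 for Idh3g (adjusted p = 0.0234) and -0.48 ± 0.13 for Idh3b (adjusted p = 0.0189), where 11.1% passed. Idh3a, described only, had -1.09 ± 0.19 and -0.97 ± 0.19. Idh1, Me1 and Me2 did not pass in either.

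The E18.5 calls of Idh3b and Idh3g were lost when 1 of several animals was left out. In soleus minus vastus intermedius at E18.5, neither passed without A, B, C or D, when the adjusted p of Idh3b was 0.0889 to 0.145 and that of Idh3g 0.0865 to 0.117. In gastrocnemius minus vastus lateralis, Idh3b was lost without B, C or D (0.061 to 0.0843) and Idh3g without B, C, D or E (0.0527 to 0.103), and Mdh1 without C (0.0535). Scaling by total counts moved both E18.5 comparisons up by 0.16, and the called differences kept their sign. On that scale soleus minus vastus intermedius was -0.26 for Idh3b and -0.3 for Idh3g. Gastrocnemius minus vastus lateralis was -0.32 for each of these genes. The summed fibre markers moved with these differences, at 8352.5 to 22793.9 CPM over the E18.5 shank libraries and 17774.3 to 32340.7 CPM over the thigh libraries. Their part in the result was not tested.

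Between E18.5 and adult, Idh3b, Idh3g, Mdh2 and Me1 rose in all 4 muscles, Mdh1 rose in 3, and Me2 fell in all 4. Idh3b rose by 2.13 (log2) in soleus, 2.3 in gastrocnemius, 2.27 in vastus intermedius and 1.66 in vastus lateralis, and Idh3g by 2.25, 2.55, 2.35 and 1.95 in that order. Mdh2 rose by 2.01, 2.34, 2.14 and 1.65. The adjusted p-values of these 12 changes were 5.22e-09 or lower. Idh3a, described only, differed by 1.38, 2.65, 1.54 and 1.73.

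Mdh1 rose by 2.62 ± 0.16 in soleus (adjusted p = 7.7e-10), 1.86 ± 0.19 in vastus intermedius (adjusted p = 7.75e-07) and 1.63 ± 0.2 in gastrocnemius (adjusted p = 1.55e-06). In vastus lateralis it was at 0.33 ± 0.16 (adjusted p = 0.0735). That value passed without adult C (0.41, adjusted p = 0.0333) or without E18.5 B (0.45, adjusted p = 0.0116). Idh2, described only, lay 2.52 ± 0.13 above its E18.5 level in soleus and 1.79 ± 0.16 above it in vastus intermedius. It lay 2.06 below it in vastus lateralis (-2.06 ± 0.1), and its ranges overlapped in gastrocnemius (0.28 ± 0.36). Idh1 fell in soleus (-0.36, adjusted p = 0.0124), gastrocnemius (-0.79, adjusted p = 5.88e-05) and vastus lateralis (-0.93, adjusted p = 0.000947), and stood at 0.11 in vastus intermedius (adjusted p = 0.492), or 0.24 without adult A (adjusted p = 0.0447).

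The malic enzymes changed places with stage. Me1 had 9.49 ± 3.12 CPM in E18.5 soleus, 9.73 ± 1.45 in gastrocnemius, 8.47 ± 2.27 in vastus lateralis and 8.34 ± 1.0 in vastus intermedius, and it rose by 3.01 ± 0.18 in soleus, 5.14 ± 0.16 in gastrocnemius, 5.64 ± 0.17 in vastus lateralis and 3.63 ± 0.17 in vastus intermedius (adjusted p 7.81e-10 or lower). Me3 had 0.882 to 5.12 CPM in E18.5 soleus (median 1.9) and means of 1.87 to 2.82 CPM in the other muscles, and adult means were 31.1 times the E18.5 means in soleus, 44.9 times in vastus intermedius, 80.2 times in gastrocnemius and 65.9 times in vastus lateralis. Me2 fell by 1.37 in soleus (adjusted p = 1e-06), 1.05 in gastrocnemius (adjusted p = 5.1e-07), 1.07 in vastus lateralis (adjusted p = 6.96e-05) and 1.04 in vastus intermedius (adjusted p = 8.32e-07), on the log2 scale. Me2 was 66.9% to 69.6% of malic enzyme transcripts per base in the 4 muscles at E18.5, and 1.88% to 6.94% in adults.

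**Figure D4:**
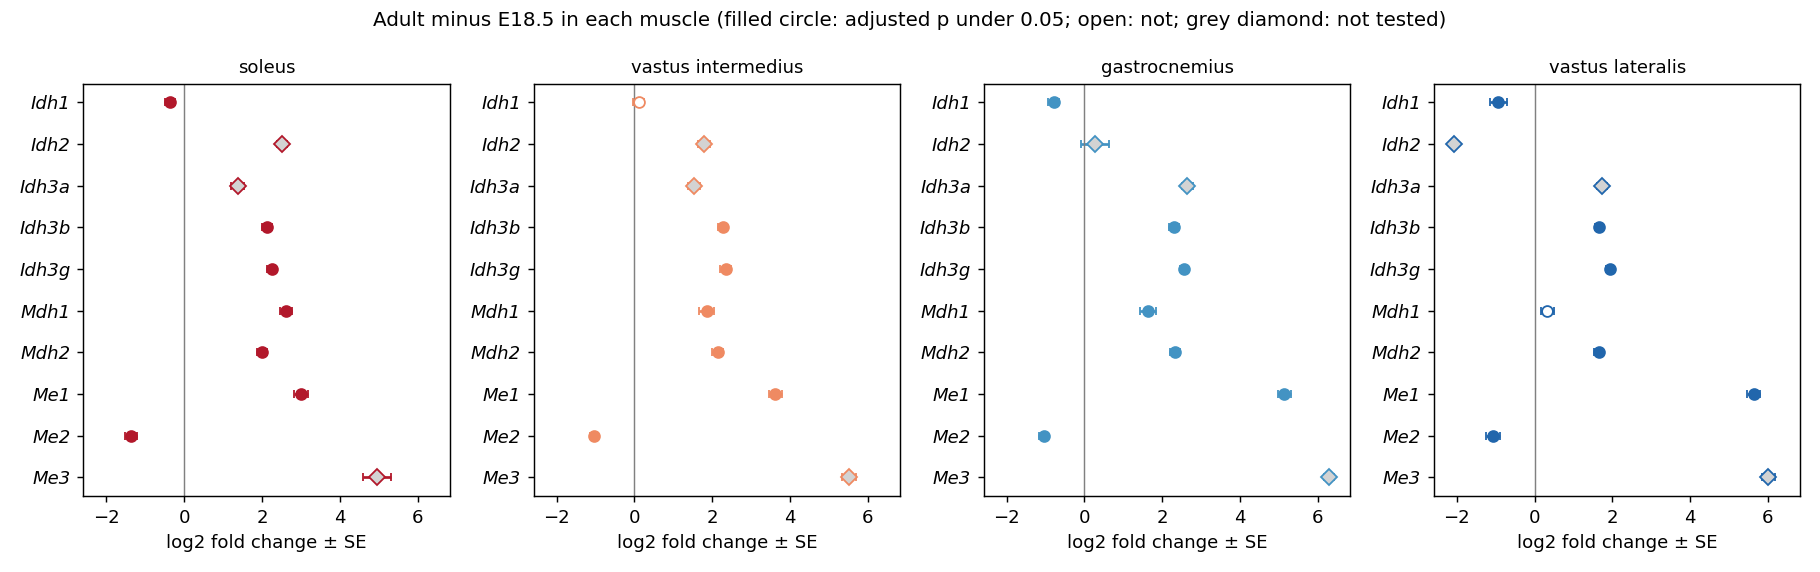
Log2 fold change (± SE) of each gene from E18.5 to adult in each of the 4 muscles. Filled circles have an adjusted p under 0.05, open circles do not, and grey diamonds mark the 3 genes that were not tested. Me2 lies below 0 in all 4 muscles, from -1.37 to -1.04, and Idh2 runs from -2.06 in vastus lateralis to 2.52 in soleus.

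These counts stand against a wide change with stage, since 76.0% of all genes passed in soleus, 82.2% in gastrocnemius, 76.1% in vastus intermedius and 79.0% in vastus lateralis. The median of the 7 tested genes was 2.13 in soleus, 2.3 in gastrocnemius, 2.14 in vastus intermedius and 1.65 in vastus lateralis, against -0.06, -0.12, -0.04 and -0.15 over all genes. Scaling by total counts lowered the stage differences by 0.71 in soleus, 1.14 in gastrocnemius, 0.75 in vastus intermedius and 1.08 in vastus lateralis, and the called changes kept their sign. Under it Idh2 in gastrocnemius stood at -0.86, Idh1 in vastus intermedius at -0.63 and Mdh1 in vastus lateralis at -0.75. The cell makeup also moved with stage, as the summed fibroblast markers (Pdgfra, Dcn, Lum, Col1a1 and Col3a1) were at 8350.7 to 18904.4 CPM in E18.5 libraries and 826 to 2451.7 CPM in adult ones. The part of this in the stage differences was not tested.

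Whether the slow-biased minus fast-biased difference itself changed with stage was tested in each pair. In the shank it passed for Mdh1 (0.97 ± 0.26, adjusted p = 0.00302) and Me1 (-2.15 ± 0.24, adjusted p = 8.81e-10), where 38.5% of the 16402 genes passed. With the replicate block it passed for 5 of 7, adding Idh1 (0.46, adjusted p = 0.0177), Idh3g (-0.31, adjusted p = 0.0249) and Mdh2 (-0.34, adjusted p = 0.0229). In the thigh it passed for Mdh1 (1.48, adjusted p = 2.52e-05), Me1 (-2.05, adjusted p = 1.14e-08), Idh1 (0.99, adjusted p = 0.00115), Idh3b (0.57, adjusted p = 0.00525) and Mdh2 (0.44, adjusted p = 0.0444), where 35.4% passed. With the left-out library kept, 3 of 7 passed in the thigh. The Mdh2 call was lost without adult F or without E18.5 A, B, C or D (adjusted p 0.0527 to 0.0989). Idh3g passed in the thigh with the replicate block alone (0.38 ± 0.12, adjusted p = 0.00831).

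Genes with the most similar profile to Idh2, Idh3a and Me3 were found by the Pearson correlation of log2(CPM + 1) over the 47 libraries, among 9079 genes with a mean of at least 10 CPM. The libraries share muscles, animals and stages, so r is a description. For Idh2 they included Atp2a2, the calcium pump of slow fibres (r = 0.975), Pdlim1 (0.972), Cyfip2 (0.958) and Ankrd2 (0.956). Among the 23 adult libraries Idh2 had an r of 0.956 with Mdh1, -0.934 with Me1 and -0.623 with Idh3a. For Idh3a they were Vdac2, a channel of the outer mitochondrial membrane (0.987), Suclg1, a subunit of succinyl-CoA ligase (0.987), Isca1, an iron-sulfur assembly factor (0.984), Slc25a12, an aspartate-glutamate carrier (0.982), and Mrpl51, of the mitochondrial ribosome (0.98). For Me3 they were Abcb4 (0.994), 2210408F21Rik (0.992), Ank (0.991), Tuba8 (0.991) and Klhl33 (0.991). Over the adult libraries alone, r in this order was 0.917, 0.949, 0.797, 0.829 and 0.883 for Me3. For the Idh3a list it was 0.936, 0.961, 0.99, 0.967 and 0.892. The r over all 47 libraries includes the difference between stages, as Me3 with Idh3b had 0.966 over all and 0.054 in adults.

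Most other enzymes of the tricarboxylic acid cycle passed in the adult thigh pair and did not pass in the shank pair, as for Idh3b and Mdh2. Of 12 tested, 11 were higher in vastus intermedius than in vastus lateralis and 1 did not pass, whereas 2 were higher and 1 lower in soleus than in gastrocnemius and 9 did not pass. Of all genes 52.2% passed in the thigh and 53.5% in the shank. The difference between the pairs passed for 9 of 12, all lower in the shank, against 8.10% of all genes. With the left-out library kept, 5 of 12 passed in the thigh and 0 for the difference, and without collection E, 5 of 13 passed in the shank. The shank count also depended on the method, as 4 passed with DESeq2 and 4 with the replicate block. With upper-quartile scaling 5 were higher and 1 lower there, and 7 had an unadjusted p under 0.05 in the main fit. Scaling by total counts moved every shank difference up by 0.41. The list's median was 0.11 in the shank, 0.71 in the thigh and -0.57 for the difference, against 0.08, 0.07 and -0.03 over all genes. Citrate synthase (Cs), which makes the citrate that feeds the isocitrate step, was at -0.18 (adjusted p = 0.0783) in the shank and 0.5 ± 0.09 higher in the thigh (adjusted p = 7.33e-05).

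Succinate dehydrogenase subunit Sdhb had the largest thigh change of the cycle genes, 1.26 ± 0.15 (adjusted p = 2.13e-07). In the shank Sdhb was at 0.3 (adjusted p = 0.0789), or 0.32 with the replicate block (adjusted p = 0.0291). Ogdh, which encodes the enzyme that uses 2-oxoglutarate, was higher in both pairs, by 0.3 ± 0.11 in the shank (adjusted p = 0.0285) and 0.8 ± 0.12 in the thigh (adjusted p = 4.5e-06). Its shank call was lost without collection A, C, D or F (adjusted p 0.0666 to 0.0765 for Ogdh). Dlst, of the same complex, was at 0.08 (adjusted p = 0.47) and 0.85 ± 0.1 higher (adjusted p = 2.16e-07). At E18.5 no cycle gene of 13 passed in a slow-biased against fast-biased pair by edgeR or DESeq2 (0 and 1 at an unadjusted p under 0.05 in shank and thigh). Of all genes 0.286% passed in the shank and 0.0317% in the thigh. Without E18.5 collection B, 1 of 13 was lower in vastus intermedius than in vastus lateralis. Between thigh and shank, 11 of 13 were lower in soleus than in vastus intermedius, where 11.2% of all genes passed. In gastrocnemius 11 of 13 were lower than in vastus lateralis, where 11.1% passed.

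Of 9 genes tested of the reducing shuttles and carriers, 4 were higher and 2 lower in vastus intermedius than in vastus lateralis, and 2 higher and 3 lower in soleus than in gastrocnemius. Of all genes 52.2% passed in the thigh and 53.5% in the shank, near the 6 and 5 of 9 here. In the malate-aspartate shuttle, in which Mdh1 acts, the cytosolic aminotransferase Got1 was 1.84 ± 0.21 higher in the thigh (adjusted p = 1.7e-07). In the shank Got1 was at 0.38 (adjusted p = 0.116), or 0.44 with the replicate block (adjusted p = 0.0341). Its mitochondrial partner Got2 was higher in both, by 1.24 ± 0.15 (adjusted p = 2.34e-07) and 0.39 ± 0.14 (adjusted p = 0.0222), the latter lost without collection D (adjusted p = 0.0991) or F (adjusted p = 0.0523).

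The carriers of that shuttle did not all have the same direction. Slc25a11, the malate carrier, was 0.74 ± 0.14 higher in vastus intermedius than in vastus lateralis (adjusted p = 0.00014) and at -0.17 in the shank (adjusted p = 0.314). Of the aspartate-glutamate carriers, Slc25a12 was lower in soleus than in gastrocnemius (-0.82 ± 0.1, adjusted p = 2.5e-07) and at 0.02 in the thigh (adjusted p = 0.908). Slc25a13 was higher in both pairs, by 2.02 ± 0.42 (adjusted p = 0.000278) and 3.89 ± 0.5 (adjusted p = 7.17e-07), from 5.49 to 8.03 CPM in adult soleus and from 0 to 1.02 CPM in vastus lateralis. The genes of the glycerol phosphate shuttle, Gpd1 and Gpd2, were lower in both slow-biased muscles, like Me1. Gpd1 had 48.6 to 59.1 CPM in adult soleus and 1017.6 to 1469.6 CPM in gastrocnemius (-4.46 ± 0.18, adjusted p = 2.39e-14), and it was -2.06 ± 0.17 in the thigh (adjusted p = 2.8e-09). Gpd2 was at -3.87 ± 0.2 (adjusted p = 6.81e-13) and -2.23 ± 0.2 (adjusted p = 4.18e-09).

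**Figure D5:**
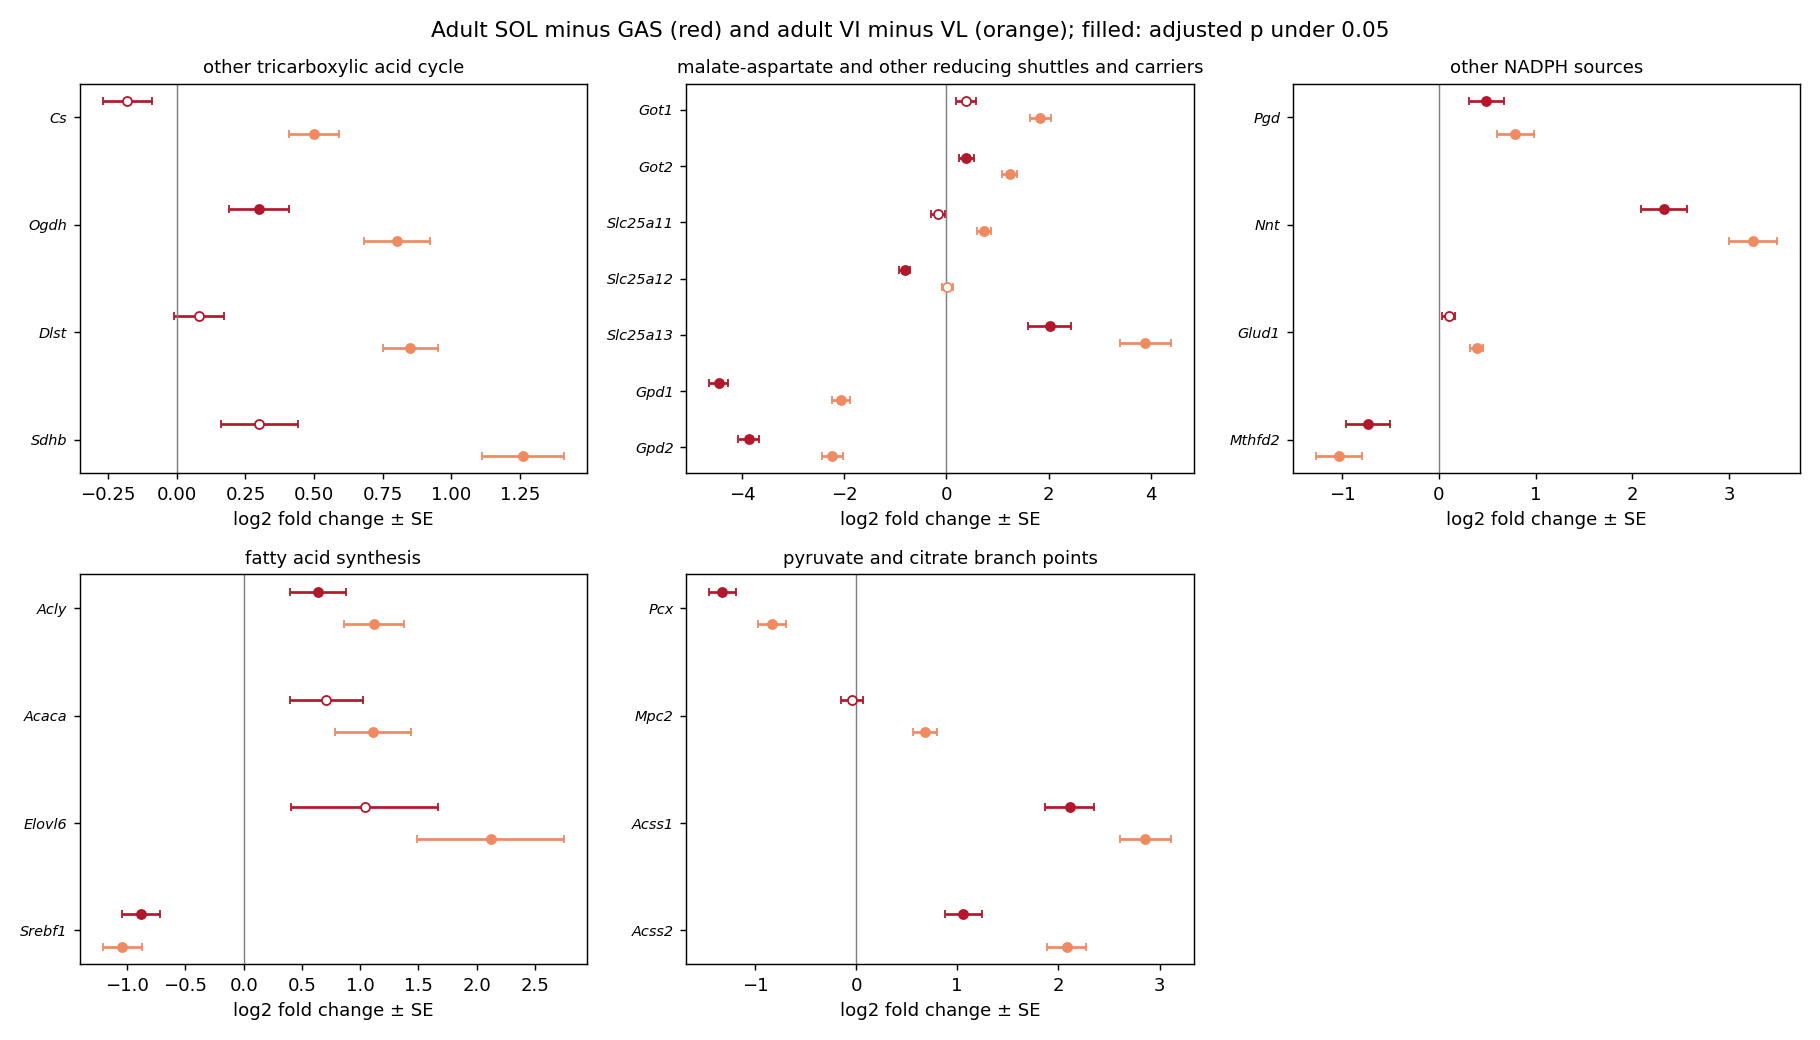
Log2 fold change (± SE) of the genes named in the text from 5 other pathway lists in the adult shank pair (soleus minus gastrocnemius) and the adult thigh pair (vastus intermedius minus vastus lateralis). Filled symbols have an adjusted p under 0.05. Gpd1 and Gpd2 lie below 0 in both pairs, and Nnt and Slc25a13 above 0 in both.

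Among the other sources of NADPH, Nnt, the mitochondrial transhydrogenase, was ordered as Idh2 was. It had 1078.0 to 1330.5 CPM in adult soleus, 529 to 947 in vastus intermedius, 104 to 392 in gastrocnemius and 77.3 to 84.0 in vastus lateralis, and its gastrocnemius values were lowest in collections A and D. Nnt was 2.33 ± 0.24 higher in soleus than in gastrocnemius (adjusted p = 1.78e-08) and 3.25 ± 0.25 higher in vastus intermedius than in vastus lateralis (adjusted p = 9.48e-10). Of the 9 genes in that list, 2 were higher and 2 lower in the shank (53.5% of all genes passed) and 4 higher and 2 lower in the thigh (52.2%). Pgd, of the pentose phosphate pathway, was higher by 0.49 ± 0.18 (adjusted p = 0.0275) and 0.79 ± 0.19 (adjusted p = 0.00139), and its shank call was lost without collection A, B or D (adjusted p 0.0531 to 0.13 for Pgd). Mthfd2, of mitochondrial folate metabolism, was lower, by -0.73 ± 0.23 (adjusted p = 0.00917) and -1.03 ± 0.24 (adjusted p = 0.000933). Glud1, glutamate dehydrogenase, was at 0.1 (adjusted p = 0.232) and 0.39 ± 0.07 higher (adjusted p = 8.17e-05). The difference between the pairs passed for 0 of the 9 with edgeR, where 8.10% of all genes passed. It passed for 2 with DESeq2 and for 2 at an unadjusted p under 0.05.

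Fatty acid synthesis uses cytosolic NADPH such as that of Me1. Of its 10 genes, 2 were higher and 1 lower in soleus than in gastrocnemius (53.5% of all genes passed), and 5 higher and 1 lower in vastus intermedius than in vastus lateralis (52.2%). Srebf1, a regulator of lipid synthesis, was the lower one in both, at -0.88 ± 0.16 (adjusted p = 5.11e-05) and -1.04 ± 0.17 (adjusted p = 1.5e-05). The higher values in the thigh rested in part on 1 library, vastus intermedius C, whose adipocyte markers summed to 1112.3 CPM. In that library Elovl6 had 26.1 CPM, against 1.19 to 2.04 CPM in the other 4, and Acaca 202 CPM, against 35.1 to 54.6 CPM. The thigh difference of Elovl6 was 2.12 (adjusted p = 0.00722) with all animals, 1.31 (adjusted p = 0.0937) with the replicate block and 0.17 (adjusted p = 0.771) without collection C, and that of Acaca was 1.11 (adjusted p = 0.00656) and without C 0.28 (adjusted p = 0.312). ATP citrate lyase, Acly, passed in the thigh with and without C, at 1.12 (adjusted p = 0.000751) and 0.48 (adjusted p = 0.000328). In the shank Acly was at 0.64 (adjusted p = 0.0302), which was lost without collection A, B, D or F (adjusted p 0.0552 to 0.0862 for Acly).

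At the branch points of pyruvate and acetyl-CoA, 3 of 8 genes were higher and 1 lower in the shank (53.5% of all genes passed), and 5 higher and 1 lower in the thigh (52.2%). Pcx, pyruvate carboxylase, which makes oxaloacetate, was the lower one in both, at -1.32 ± 0.13 (adjusted p = 1.8e-08) and -0.83 ± 0.14 (adjusted p = 2.85e-05). The mitochondrial acetyl-CoA synthetase Acss1 was higher by 2.11 ± 0.24 (adjusted p = 7.12e-08) and 2.86 ± 0.25 (adjusted p = 4.18e-09), and the cytosolic Acss2 by 1.06 ± 0.18 (adjusted p = 2.66e-05) and 2.08 ± 0.19 (adjusted p = 6.59e-09). The pyruvate carrier gene Mpc2 was at -0.04 (adjusted p = 0.77) and 0.68 ± 0.12 higher (adjusted p = 3.87e-05).

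The authors' deposited table of adult slow-biased against fast-biased muscles, which pools the pairs, lists log2 fold changes of 2.83 for Idh2, 1.48 for Mdh1, 0.65 for Idh1, -0.52 for Idh3a, -0.55 for Me3 and -2.11 for Me1. Each of these deposited values lies between those of the shank and thigh pairs given above. Since that table pools the same pairs, such a place is likely in advance and is no separate evidence.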

How the data were processed

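The authors deposited 1 table of raw gene counts for the 48 libraries, and tables of their own comparisons from which log2 fold changes were read. The submitters' processing notes name build mm10 and, with no stated order, STAR 2.7.11, Subread 2.0.6 with its featureCounts program, DESeq2 1.44.0, FastQC 0.11.5 and Trimmomatic 0.39.0. No annotation or strand setting is named in the labels or file headers, so overlapping genes could not be told apart. Per the labels, RNA had an integrity number of at least 7.

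Symbols came from RefSeq (GRCm38.p6) for 25275 genes and from the deposited comparison tables for 6. Count columns carry the stage, the muscle and a date tag but no animal number. The labels say that the 4 muscles came from the same mice, and each tag has 1 library per muscle, so the tag was used as the animal. The 6 tags fall on 4 dates at E18.5 and 5 in adults, and the sources used here do not say whether embryos of 1 date are littermates. Deviations from group means over 9125 genes correlated at a mean of 0.136 in adults and 0.265 at E18.5 within a tag, against -0.0277 and -0.0515 between tags, with lowest values of -0.255 and -0.178 within a tag, so the pairing rests on tags and labels. Every pair of libraries in a group differed by more than sampling noise (lowest chi-square per degree of freedom 10.76).

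Quasi-likelihood F tests of edgeR 4.0.16 were run on the counts (TMM, filterByExpr, R 4.3.3), with p-values adjusted by Benjamini-Hochberg over all genes tested and a threshold of 0.05. The 4 muscles of a stage shared 1 fit, stage contrasts used 1 muscle each, and the tests of a change with stage used all 8 groups. No main fit had a term for the animal, so muscles of the same animal were treated as independent. The standard error is the fold change over the square root of F. Shares use CPM per base of the gene length in the count table. Plots and tables used Python 3.11.15 with pandas 2.3.3 and matplotlib 3.10.9. The edgeR step was tested on simulated data. Alternatives were DESeq2 1.42.0, other size factors, no filter, total counts, the animal as a block, all 48 libraries, and leaving out each animal.

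The 10 genes, the pathway and marker lists and the tests were chosen with earlier results of these data known. The text names all 10, the pathway partners Cs, Got1, Got2, Slc25a11, Slc25a12, Slc25a13, Nnt and Pcx, and in each pathway list up to 4 genes with the largest change in an adult pair among those that passed, apart from a few genes that are not reported here. No protein sequence was used here.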

Additional observations from a re-analysis of the deposited data

Results flagged for a closer look

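In 56 groups of a tested gene, stage and muscle, the highest or lowest library was set against the others by Dixon's test, which chance passes in about 1 in 20 groups, and 4 groups passed. Gastrocnemius of E18.5 collection F was low in Idh3b (86.9 CPM). Soleus of adult collection A was low in Mdh1 (1350.6 CPM) and Mdh2 (752 CPM). Vastus intermedius of adult collection F was high in Me2 (8.7 CPM). No cause was tested.

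Several genes differed between pairs of groups under the same contrast. The slow-biased minus fast-biased difference was smaller in the shank than in the thigh of adults for Idh3b (-0.68, log2), Idh3g (-0.64) and Mdh2 (-0.78). From E18.5 to adult, the difference grew in the thigh for Idh1 (0.99), Idh3b (0.57), Mdh1 (1.48) and Mdh2 (0.44) and in the shank for Mdh1 (0.97). For Me1 it moved by -2.15 in the shank and -2.05 in the thigh. Idh2 lay above its E18.5 level in every adult library of soleus (2.52) and vastus intermedius (1.79) and below it in every adult library of vastus lateralis (-2.06), a difference between muscles that was not tested because Idh2 was selected for it.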

How the results depend on the processing

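Over all alternatives, no called value of the 7 tested genes reversed. In all, 1381 values kept their status, whether called or not called, 33 lost a call and 14 gained one. Of the values of Idh2, Idh3a and Me3, 605 moved by less than the SD between animals and 7 by more. Keeping all 48 libraries lowered the calls to 3 of 7 in vastus intermedius minus vastus lateralis (from 6), 0 in the difference of the pairs (from 3), 0 in soleus minus vastus intermedius (from 3) and 3 in the thigh change with stage (from 5). The cause was not tested. The replicate block raised the shank change with stage to 5 of 7 (from 2), and its other moved calls stand beside the results above. It could not be used between stages, which hold different animals. Leaving out 1 animal gave 2 to 4 calls in E18.5 soleus minus vastus intermedius and 1 to 4 in E18.5 gastrocnemius minus vastus lateralis, with the animals named above.

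Counts over all genes moved more. With all 48 libraries they were 214 (from 1159) for the difference of the pairs, 220 (from 807) for adult gastrocnemius minus vastus lateralis and 1095 (from 2464) for adult soleus minus vastus intermedius. With the replicate block they were 2702 (from 1743) for E18.5 gastrocnemius minus vastus lateralis, 2757 (from 1757) for E18.5 soleus minus vastus intermedius and 101 (from 45) for E18.5 soleus minus gastrocnemius. DESeq2 called 164 in the last (from 45) and 19 in E18.5 vastus intermedius minus vastus lateralis (from 5). Without 1 animal the counts ran from 607 to 1401, 905 to 1893, 9 to 34 and 0 to 100 in these 4 E18.5 comparisons, in the order gastrocnemius minus vastus lateralis, soleus minus vastus intermedius, soleus minus gastrocnemius and vastus intermedius minus vastus lateralis. The 100 was reached without E18.5 collection B. In adults they ran from 540 to 1064 for the difference of the pairs, 399 to 751 for gastrocnemius minus vastus lateralis and 1451 to 2590 for soleus minus vastus intermedius. CPM over total counts moved 72 of 80 group means by more than 1 SD, and leaving the 20 most abundant genes out of the total moved 45. Me3 at E18.5, with a lowest count of 27, is the member with the least depth.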
